A study of Mus musculus with 8 samples.

Results

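Insulin and the insulin-like growth factors (IGFs) act through a small set of receptors, docking proteins and carriers, and 10 genes of that set were followed in the hippocampus: the receptors Insr, Igf1r and Igf2r, the docking proteins Irs1 and Irs2, and the IGF binding proteins Igfbp2, Igfbp3, Igfbp4, Igfbp5 and Igfbp6. They were taken by gene symbol, and all 10 were found among the 19505 genes that the array's probe sets name. The samples were hippocampi of 4 mice with impaired memory and 4 mice with intact memory, 1 array per mouse. All 8 mice were of the line B6.Cg-Tg(APPswe)E1-2Dbo/J, which carries a transgene for amyloid precursor protein. They were 18 to 20 months old and had been through the Morris water maze, a swimming test of spatial memory. No mouse without the transgene is part of the comparison, so the values separate the memory groups within 1 aged transgenic line and say nothing of the transgene itself. The question was which hippocampal genes differ with memory status among such mice.

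Insr and Igf1r are tyrosine kinase receptors at the cell surface, and on binding insulin or IGFs they phosphorylate Irs1 and Irs2, which recruit PI3-kinase and so switch on Akt and mTOR and restrain GSK3 and the FoxO factors. Igf2r has no kinase domain and carries IGF2 to the lysosome for breakdown, besides sorting lysosomal enzymes. IGF binding proteins hold IGFs outside cells, which lengthens their life and limits or directs their access to Igf1r. In the brain this pathway is known for its part in neuronal survival and synaptic plasticity, and impaired insulin signalling has been described in Alzheimer's disease.

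Expression is given on the log2 scale, where a difference of 1 is a doubling, and differences are impaired minus intact. Each probe set has its own affinity, so values are compared between mice for 1 gene and not between genes. Array medians over the 14628 genes tested spanned 7.75 to 7.79, and any pair of arrays had a correlation of 0.979 to 0.989 over genes. Precision is limited by there being 8 arrays, with a median standard error of 0.105 for a difference. All 10 members passed the filter on low values (a mean over all arrays above 5.33), all had a mean above 6.30, the 75th percentile of 5222 negative control probe sets, and 8 lay above their 95th percentile of 7.92. The exceptions were Irs1 and Igfbp3. Of the hippocampal neuron markers, 7 of 8 for dentate granule cells, 4 of 6 for CA1 and 5 of 6 for CA3 pyramidal neurons passed that filter. By its rule the filter left out 25% of all genes, so these counts do not show which cells the samples held.

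For no member could the difference between the memory groups be told from the spread between mice. Of the 10 members, 0 passed an adjusted p of 0.05 (limma, adjusted over all 14628 genes), where 0% of all genes passed, and 0 had an unadjusted p under 0.05, against 4.68% of all genes. The groups overlapped for every member, while 2.58% of all genes had groups that did not overlap (1.12% with the impaired group higher and 1.46% lower). Of the members, 5 had higher and 5 lower means in the impaired group, and 47.1% of all genes had higher means. The median difference of the members was -0.00094, against -0.0083 over all genes tested. Their differences ran from -0.21 for Igfbp2 to 0.18 for Irs1, and their adjusted p from 0.961 to 0.990.

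**Figure D1:**
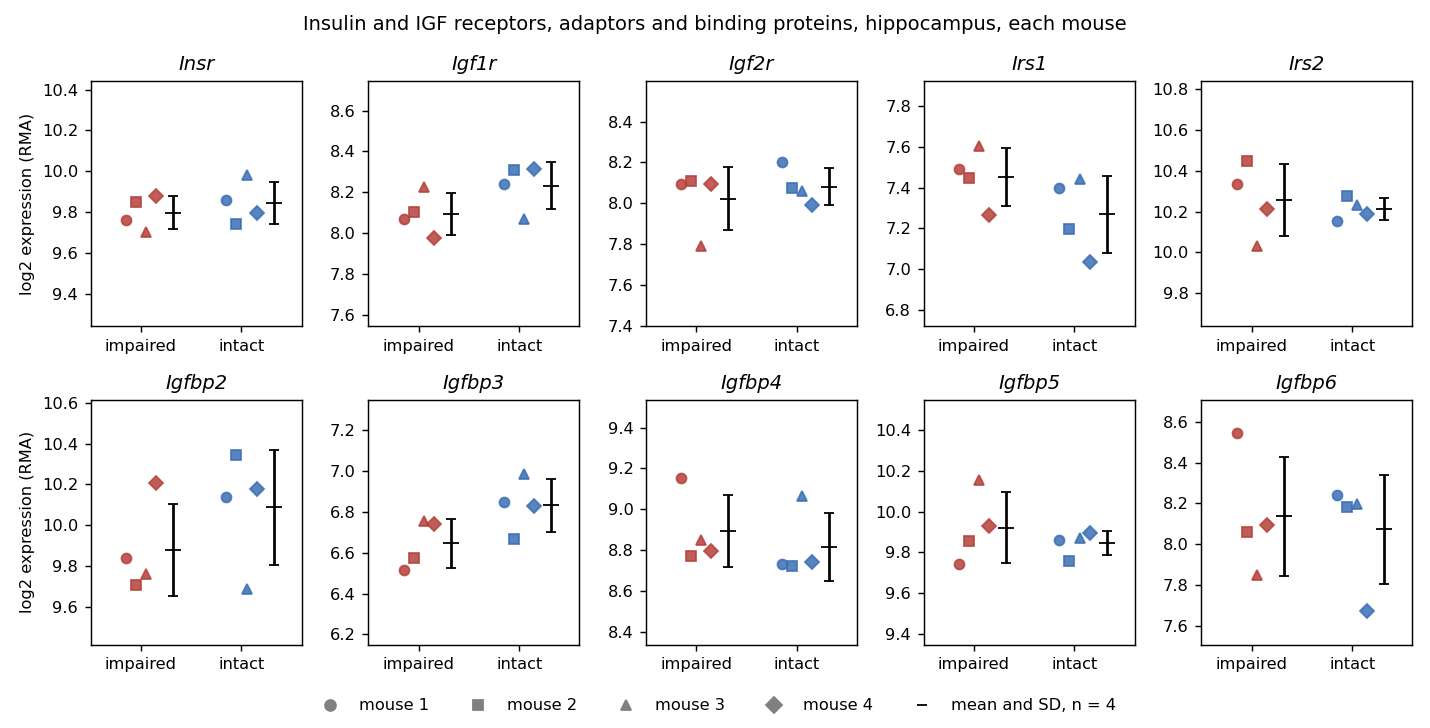
Log2 expression of the 10 members in each mouse, impaired left of intact, with a marker shape for each mouse number and bars for the mean and SD of 4 mice. All panels have the same height in log2 units; the groups overlap in all of them, and the points spread most for Igfbp2 and Igfbp6.

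Among the receptors, Insr, the insulin receptor, varied least of all members. It stood at 9.76, 9.85, 9.70 and 9.88 in impaired mice 1 to 4 and at 9.86, 9.74, 9.98 and 9.80 in intact mice 1 to 4. All 8 values fell within 0.28, and its SD over the mice was larger than that of only 13.0% of the genes tested. Insr differed by -0.048 (standard error 0.084, limma, adjusted p = 0.986). The 95% interval, -0.23 to 0.14, allows at most a 1.18-fold lower or a 1.10-fold higher level in the impaired group.

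Igf1r, the main receptor for IGFs, had 8.07, 8.11, 8.23 and 7.98 in the impaired mice and 8.24, 8.31, 8.07 and 8.31 in the intact mice. In each group 3 of 4 values lay on 1 side, with impaired mouse 3 and intact mouse 3 on the other. The means were 8.10 ± 0.10 and 8.23 ± 0.11 (SD, n = 4 each), a difference of -0.14 (standard error 0.089, limma, adjusted p = 0.961). Over the settings tried it ran from -0.24, without both of those mice, to -0.096, with a meningeal fibroblast score as a covariate. The first was fixed by which mice were left out.

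Igf2r, the IGF2 clearance receptor, had 8.10, 8.11, 7.79 and 8.10 in the impaired mice and 8.20, 8.07, 8.06 and 7.99 in the intact mice. Impaired mouse 3 lay below all the others, which spanned 7.99 to 8.20. Igf2r differed by -0.058 (standard error 0.095, limma, adjusted p = 0.981). Leaving out impaired mouse 3 gave 0.018.

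Both docking proteins had a promoter window in RefSeq, as did every member but Insr, and the windows of Irs1, Irs2 and Igfbp2 are shown because Irs1 and Igfbp2 had the most opposed patterns over the mice and Irs2 is the close relative of Irs1. The windows are from GRCm38.p6 and run 5′ to 3′ from 250 bases before to 50 bases after the start of transcription. Capitals mark CACGTG, the E-box read by basic helix-loop-helix factors.
Irs1, chr1:82291390-82291689, minus strand: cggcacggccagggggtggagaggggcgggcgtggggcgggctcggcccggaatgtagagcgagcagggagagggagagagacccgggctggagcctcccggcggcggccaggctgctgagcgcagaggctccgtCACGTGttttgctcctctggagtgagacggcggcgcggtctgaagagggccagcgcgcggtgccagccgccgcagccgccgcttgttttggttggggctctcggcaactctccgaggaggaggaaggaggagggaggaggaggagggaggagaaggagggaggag
Irs2, chr8:11008880-11009179, minus strand: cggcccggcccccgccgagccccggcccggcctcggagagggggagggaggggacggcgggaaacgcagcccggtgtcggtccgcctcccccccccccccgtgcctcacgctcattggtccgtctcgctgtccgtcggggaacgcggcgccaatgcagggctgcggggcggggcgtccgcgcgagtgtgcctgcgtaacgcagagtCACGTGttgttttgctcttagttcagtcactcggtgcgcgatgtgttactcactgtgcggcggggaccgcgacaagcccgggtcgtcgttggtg
Igfbp2, chr1:72824230-72824529, plus strand: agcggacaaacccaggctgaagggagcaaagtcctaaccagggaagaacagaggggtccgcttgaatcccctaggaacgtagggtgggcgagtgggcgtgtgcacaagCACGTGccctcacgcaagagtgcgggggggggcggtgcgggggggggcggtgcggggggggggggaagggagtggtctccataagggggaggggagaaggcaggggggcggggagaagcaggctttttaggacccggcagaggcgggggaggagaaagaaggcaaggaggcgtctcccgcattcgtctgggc

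The E-box begins 115 bases before the start in Irs1, 44 in Irs2 and 142 in the Igfbp2 window shown, the first of a pair listed for that gene. It is its own reverse complement, and it lies in 4 of the members' 10 windows, against 7.15% of all 32851 windows. The remaining member window with it is that of Igf2r. The GC box GGGCGG, searched on both strands, lies in 5 of the members' 10 windows (Igf1r, Igf2r, Irs1, Irs2 and Igfbp2) and in 35.7% of all windows. Searched likewise on both strands, TATAAA lies in the windows of Igfbp4 (on the strand shown in RefSeq's table) and Igfbp6 (as its reverse complement) and in 13.6% of all. The FoxO site TGTTTAC, on either strand, lies in none of the members' windows and in 3.65% of all. The windows of Irs1, Irs2 and Igfbp2 are rich in G and C (71.3%, 72.0% and 67.0%), and that of Igfbp6 has 49.7%. The motifs were chosen with the values known and are a description of these letters only.

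Irs1, a docking protein shared by both receptors, had 7.49, 7.45, 7.61 and 7.27 in the impaired mice and 7.40, 7.20, 7.44 and 7.04 in the intact mice. Its 3 highest values were in impaired mice and its 2 lowest in intact mice, with the groups overlapping between 7.27 and 7.44. The means were 7.45 ± 0.14 and 7.27 ± 0.19 (SD, n = 4 each), a difference of 0.18 (standard error 0.11, 95% interval -0.060 to 0.43, limma, adjusted p = 0.961). Meningeal fibroblast markers also had higher means in the impaired group, in 9 of 9 measured markers, against 47.1% of all genes. These markers come from the same 8 mice and are not independent of each other. Their score, the mean deviation from the mean of all mice, was 0.14, 0.0052, -0.036 and 0.30 in impaired mice 1 to 4. In intact mice 1 to 4 it was -0.33, -0.084, -0.088 and 0.088. The score was highest in mouse 4 of each group, which had the lowest Irs1 of its group. Its relation to Irs1 over the mice was not tested. The summed level of these markers ran from 68.0 to 71.1 in impaired and from 65.4 to 69.2 in intact mice. The Irs1 difference was 0.35 with their score as a covariate (limma, adjusted p = 1.00), 0.13 with the choroid plexus score (adjusted p = 0.998) and 0.11 without intact mouse 4, and the part of these markers in it was not tested further.

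Irs2, a docking protein of the same family, had 10.33, 10.45, 10.03 and 10.21 in the impaired mice and 10.15, 10.28, 10.23 and 10.19 in the intact mice. The impaired mice held both the 2 highest and the lowest values, with an SD of 0.18 against 0.054 in the intact mice. The difference of the means was 0.046 (standard error 0.097, limma, adjusted p = 0.990). No relation between Irs1 and Irs2 was detectable over the 8 mice, with a Pearson's r of -0.064 (exact permutation p = 0.883, adjusted p = 0.929) and a Spearman's rho of 0.071 (exact permutation p = 0.882, adjusted p = 0.945). Without intact mice 2 and 4, the farthest from the median of Irs1, r was -0.24.

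Of the binding proteins, Igfbp2, a main carrier of IGFs in the brain's fluid spaces and abundant in the choroid plexus and meninges, had the largest difference of any member. Its values were 9.84, 9.71, 9.76 and 10.20 in the impaired mice and 10.14, 10.35, 9.69 and 10.18 in the intact mice. They formed a low set of 4 mice (impaired 1, 2 and 3 and intact 3) and a high set of 4 (impaired 4 and intact 1, 2 and 4). The means were 9.88 ± 0.22 and 10.09 ± 0.28 (SD, n = 4 each), a difference of -0.21 (standard error 0.15, 95% interval -0.54 to 0.12, limma, adjusted p = 0.961). The interval allows up to 1.46-fold lower or 1.09-fold higher in the impaired group.

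Choroid plexus markers moved with Igfbp2. The score of the 13 measured of 14 plexus markers, their mean deviation from the mean of all mice, was 0.14, -0.36, -0.93 and 0.30 in impaired mice 1 to 4 and 0.88, 0.54, -0.96 and 0.41 in intact mice 1 to 4. The 4 mice with low Igfbp2 were the 4 with the lowest scores. In the impaired group 0 of 13 markers had higher means, against 47.1% of all genes. Their summed level ran from 86.9 to 102.9 in impaired and from 86.5 to 110.4 in intact mice. With the score as a covariate the Igfbp2 difference was -0.080 (limma, unadjusted p = 0.503, adjusted p = 0.998). With plexus and thalamus marker scores together it was -0.13 (limma, unadjusted p = 0.339). It was -0.29 with the thalamus score alone and -0.34 with the meningeal fibroblast score (limma, unadjusted p = 0.0703 and 0.0924). With each mouse left out in turn it ran from -0.34, without intact mouse 3 (adjusted p = 0.925), to -0.12, without intact mouse 2 (adjusted p = 0.974), and it was -0.32 without impaired mouse 4. In bulk tissue, fewer cells of a type and less RNA per cell cannot be told apart.

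**Figure D2:**
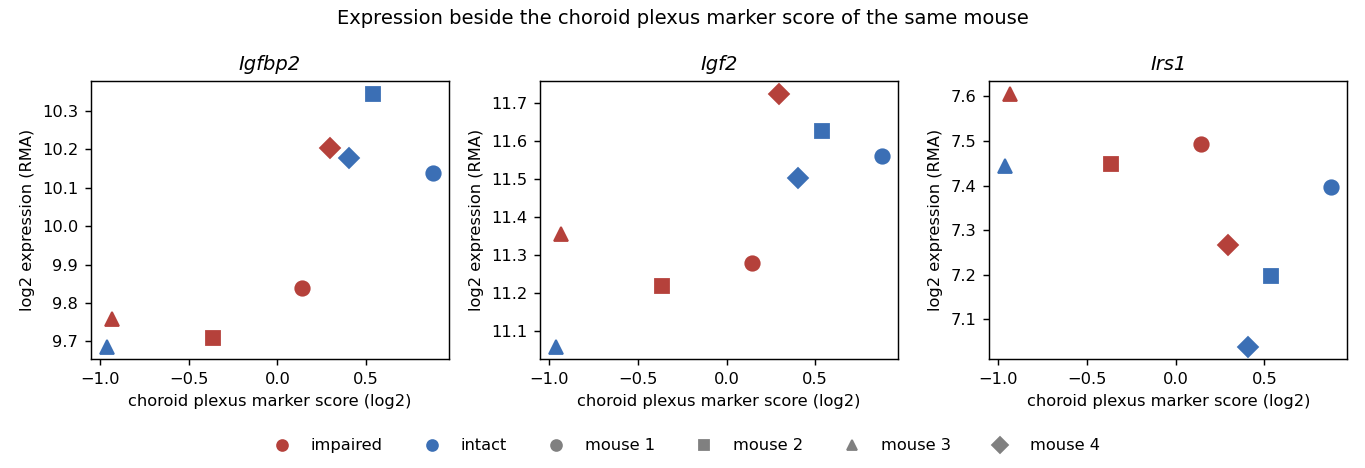
Log2 expression of Igfbp2, Igf2 and Irs1 (vertical axes) against the choroid plexus marker score in log2 units (horizontal axes), 1 point per mouse, red for impaired and blue for intact. The 4 lowest Igfbp2 values, at 9.69 to 9.84, lie at scores of 0.14 and below.

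Igfbp3, the main carrier of IGFs in blood, had the smallest p of the members. It stood at 6.52, 6.57, 6.75 and 6.74 in the impaired mice and at 6.85, 6.67, 6.99 and 6.83 in the intact mice. Intact mouse 2 alone lay within the impaired range, and the other 3 intact mice lay above every impaired mouse. The means were 6.65 ± 0.12 and 6.83 ± 0.13 (SD, n = 4 each), a 1.14-fold lower level in the impaired group (difference -0.19, standard error 0.095, limma, unadjusted p = 0.0768, adjusted p = 0.961). By p it ranked 1072 of 14628 genes. Igfbp3 was the dimmest member: 82.7% of the negative control probe sets lay below its mean.

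Igfbp4, a carrier that mostly restrains IGF action and is cut by the protease PAPP-A, had 9.15, 8.77, 8.85 and 8.80 in the impaired mice and 8.73, 8.72, 9.07 and 8.74 in the intact mice. Impaired mouse 1 and intact mouse 3 stood above the other 6 mice, which lay between 8.72 and 8.85. Igfbp4 differed by 0.079 (standard error 0.11, limma, adjusted p = 0.974). Leaving out impaired mouse 1 gave -0.0078.

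Igfbp5, a carrier that binds the extracellular matrix and lies next to Igfbp2 in the order of protein-coding genes of GRCm38.p6, had 9.74, 9.85, 10.16 and 9.93 in the impaired mice and 9.86, 9.76, 9.87 and 9.89 in the intact mice. Both ends of its range were impaired mice, and the difference was 0.074 (standard error 0.097, limma, adjusted p = 0.965). The neighbours Igfbp2 and Igfbp5 had a Pearson's r of -0.27 over the 8 mice (exact permutation p = 0.564, adjusted p = 0.866) and a Spearman's rho of -0.048 (exact permutation p = 0.935, adjusted p = 0.956). Without intact mice 2 and 3, r was -0.14.

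Igfbp6, a carrier that prefers IGF2 to IGF1, spread most. It had 8.54, 8.06, 7.85 and 8.09 in the impaired mice and 8.24, 8.18, 8.20 and 7.67 in the intact mice. The ends were impaired mouse 1 and intact mouse 4, 0.87 apart, while the other 6 mice lay between 7.85 and 8.24. The difference of the means was 0.064 (standard error 0.16, 95% interval -0.30 to 0.42, limma, adjusted p = 0.990), and leaving out impaired mouse 1 gave -0.072. Among the genes tested, 89.0% had a smaller SD over the mice than Igfbp6, and 89.0% a smaller one than Igfbp2.

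**Figure D3:**
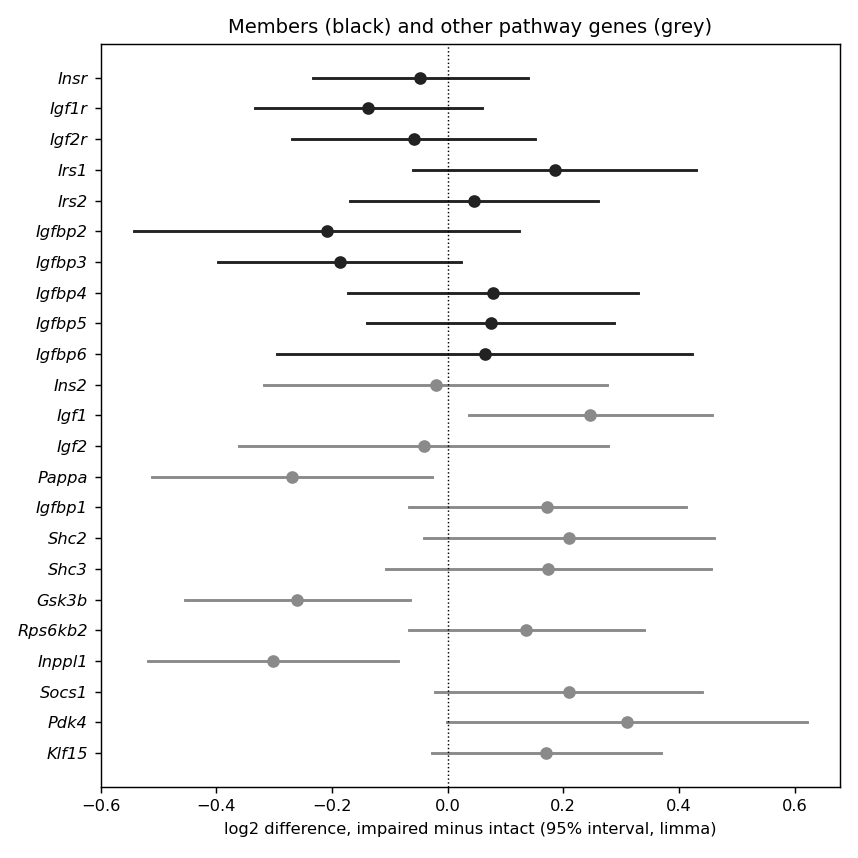
Log2 difference, impaired minus intact, with its 95% interval from limma, for the 10 members in black and 13 other genes of the pathway in grey. The intervals of all 10 members include 0. Those of Igf1, Pappa, Gsk3b and Inppl1 do not, before adjustment for the number of genes. Apart from the ligands, the grey genes were picked by smallest p, 2 from each list, so they are not set against the members. Of all 69 tested pathway genes, 4 had an unadjusted p under 0.05 (limma), beside 4.68% of all genes tested.

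The other genes of the pathway also held none that passed. Of 77 listed ligands, carriers, adaptors, kinases, inhibitors and FoxO targets, 69 were tested and 0 passed in either direction (limma, adjusted p = 0.961 or more). An unadjusted p under 0.05 was found for 4 of the 69, close to the 4.68% of all genes tested. Means were higher in the impaired group for 34 and lower for 35, with a median difference of -0.0033. The groups did not overlap for 2 of the 69, Igf1 and Gsk3b, beside the 2.58% of all genes.

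Among the ligands, Igf1, the growth factor made in the brain by microglia and some neurons, was the one with separate groups. It stood at 8.66, 8.71, 8.71 and 8.68 in the impaired mice and at 8.23, 8.59, 8.37 and 8.58 in the intact mice. Every impaired value lay above every intact one, but the nearest were only 0.071 apart. The impaired mice were closely alike, with a mean of 8.69 ± 0.023, against 8.44 ± 0.18 in the intact mice (SD, n = 4 each), a difference of 0.25 (standard error 0.095, limma, unadjusted p = 0.0255, adjusted p = 0.961). Over the settings tried it ran from 0.16, with the meningeal score as a covariate, to 0.30, without intact mouse 2. With the plexus and thalamus scores together as covariates it was also 0.16.

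Igf2, the growth factor secreted by choroid plexus and meninges in the adult brain, had 11.28, 11.22, 11.36 and 11.72 in the impaired mice and 11.56, 11.62, 11.06 and 11.50 in the intact mice. The 4 mice with low Igfbp2 were also the 4 lowest for Igf2, and the groups differed by -0.042 (standard error 0.14, limma, adjusted p = 0.993). Ins2, an insulin gene whose brain expression has been described in the choroid plexus, had 6.50 to 7.16 over the mice and a difference of -0.021 (standard error 0.13, limma, adjusted p = 0.995). Its values all lay below 7.92, the 95th percentile of the negative controls. Ins1 was not analysed here.

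Of the 7 other tested carriers and release factors, 5 had higher and 2 lower means in the impaired group, with a median difference of 0.049. Pappa, the protease that frees IGFs by cutting Igfbp4, had 5.42, 5.71, 5.38 and 5.72 in the impaired mice and 5.71, 5.77, 5.79 and 6.03 in the intact mice. Its level was close to that of the negative controls, whose median was 5.26, and the groups overlapped between 5.71 and 5.72. The difference was -0.27 (standard error 0.11, limma, unadjusted p = 0.0322, adjusted p = 0.961). Igfbp1, a carrier made mainly by liver, differed by 0.17 (standard error 0.11, adjusted p = 0.961) at a level of 5.19 to 5.73, and by 0.084 without impaired mouse 1.

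Of the 24 tested genes of the PI3-kinase, Akt and mTOR cascade, 12 had higher and 12 lower means, with a median difference of -8.5e-05. Gsk3b, a kinase that Akt inhibits and that phosphorylates tau, had 11.27, 11.41, 11.28 and 11.56 in the impaired mice and 11.61, 11.72, 11.58 and 11.65 in the intact mice. The groups were apart by 0.016, from impaired mouse 4 to intact mouse 3. The difference was -0.26 (standard error 0.088, limma, unadjusted p = 0.0134, adjusted p = 0.961). Rps6kb2, a kinase of ribosomal protein S6, differed by 0.14 (standard error 0.092, adjusted p = 0.961), and by 0.073 without impaired mouse 3.

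Of the 12 tested receptor adaptors, 7 had higher and 5 lower means. Shc2 and Shc3, neuronal adaptors that link receptor kinases to Ras, differed by 0.21 and 0.17 (standard errors 0.11 and 0.13, limma, adjusted p = 0.961 for each). Shc2 ran from 0.14, without impaired mouse 1, to 0.32, without impaired mouse 4. Thalamus markers had higher means in the impaired group in 12 of 12 cases, against 47.1% of all genes. Like the plexus markers, they are not independent of each other. Their summed level was 107.4 to 115.2 in impaired and 93.8 to 114.8 in intact mice. Their scores were -0.18, 0.46, 0.40 and -0.021 in impaired mice 1 to 4 and -0.19, 0.41, -1.32 and 0.44 in the intact mice. Only intact mouse 3 stood apart from the rest. With the thalamus score as a covariate Shc3 differed by 0.072, and without intact mouse 3, which had the lowest score, by 0.066. Of the 10 tested negative regulators 9 had lower means in the impaired group, but with a median difference of -0.027. Inppl1, the lipid phosphatase SHIP2, had 7.71, 7.79, 7.88 and 7.95 in the impaired mice and 8.06, 8.26, 7.95 and 8.27 in the intact mice. Intact mouse 3 met the upper end of the impaired range, and the difference was -0.30 (standard error 0.098, limma, unadjusted p = 0.0106, adjusted p = 0.961). Socs1, a suppressor of cytokine signalling that can also bind Irs proteins, was the exception at 0.21 (standard error 0.10, adjusted p = 0.961), at a level of 5.17 to 5.74.

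Of 13 FoxO targets, which insulin signalling holds down, 8 had higher and 5 lower means in the impaired group, with a median difference of 0.096. Pdk4, a kinase that turns off pyruvate dehydrogenase, differed by 0.31 (standard error 0.14, limma, adjusted p = 0.961), and Klf15, a transcription factor of fasting metabolism, by 0.17 (standard error 0.090, adjusted p = 0.961). Both are also induced by glucocorticoids. Pdk4 differed by 0.20 without impaired mouse 3 and by 0.093 with the plexus and thalamus scores as covariates.

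No pair of members had a correlation over the mice that passed the test. Of 45 pairs, 19 had a Pearson's r above 0, the median r was -0.085, 2 pairs had an unadjusted exact permutation p under 0.05 and 0 passed after adjustment over the 45 pairs (smallest adjusted p = 0.610). The lowest r was that of Irs1 and Igfbp2, -0.78 (exact permutation p = 0.0232, adjusted p = 0.610), with a Spearman's rho of -0.71 (exact permutation p = 0.0576, adjusted p = 0.721). Without intact mice 2 and 4 it was -0.73, and as deviations from the group means -0.72. The next lowest, Igf2r and Igfbp5, had r = -0.77 and rho = -0.45 (exact permutation p = 0.0567 and 0.267, adjusted p = 0.610 and 0.926), and it rested on impaired mouse 3, without which r was -0.077. Without impaired mouse 3 and intact mouse 1, the farthest from the median of Igf2r, r was -0.27.

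The highest r were 0.60 for Igf2r and Igfbp6 and 0.59 for Igfbp4 and Igfbp6 (exact permutation p = 0.123 and 0.132, adjusted p = 0.610 for each), with rho of 0.50 and 0.24 (exact permutation p = 0.216 and 0.582, adjusted p = 0.926 and 0.945). The pair of Igfbp4 and Igfbp6 rested on impaired mouse 1, with r = 0.18 without it and -0.34 without impaired mouse 1 and intact mouse 3. For Igf2r and Igfbp6, r was 0.71 without impaired mouse 3 and intact mouse 1. The related receptors Insr and Igf1r had r = -0.54 and rho = -0.55 (exact permutation p = 0.163 and 0.171, adjusted p = 0.610 and 0.855), and r = -0.49 without impaired mouse 3 and intact mouse 3.

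**Figure D4:**
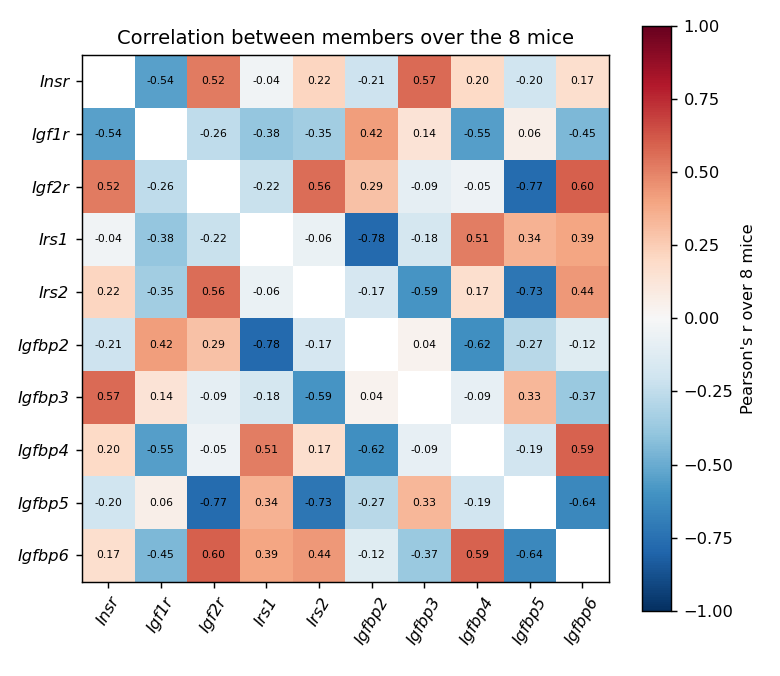
Pearson's r over the 8 mice for each of the 45 pairs of members, red above 0 and blue below. The lowest are Irs1 with Igfbp2 (-0.78) and Igf2r with Igfbp5 (-0.77), and the highest is Igf2r with Igfbp6 (0.60).

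For the 3 members with the largest SD, the genes most alike over the 8 mice were sought among 14618 others by Pearson's r. Irs1 was most like Sox5 (r = 0.98), Dgkd (0.96) and Lig1 (0.95), with r of 0.94, 0.92 and 0.83 without intact mice 2 and 4. Igfbp2 was most like Htr6 (0.96), Tent5c (0.95) and Gm12216 (0.95), with r of 0.94, 0.98 and 0.93 without intact mice 2 and 3. Igfbp6 was most like Tyro3 (0.97), Lst1 (0.96) and Plekho1 (0.96), with r of 0.90, 0.91 and 0.85 without impaired mouse 1 and intact mouse 4. These are the highest values of a search over the same 8 arrays, and 30, 18 and 21 genes had an r above 0.9 with Irs1, Igfbp2 and Igfbp6.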

How the data were processed

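RNA of 8 hippocampi (1 ng each, per the labels' protocols) was amplified, labelled with biotin and hybridised to 1-colour Affymetrix arrays. The deposited table holds log2 expression. The authors computed it with RMA, per the submitters' processing notes; RMA subtracts background, equalises the arrays' quantiles and summarises probes, and it compresses differences of dim genes. The software version and build were not given in the sources used here. Of 29129 probe sets, 19572 had 1 gene symbol in the platform's probe table, 0 had several and the rest are unnamed here. The brightest probe set stood for a gene, and each member had 1. The 25% of genes with the lowest mean were left out, which kept 14628.

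Groups were compared with limma 3.58.1 in R 4.3.3 (lmFit, eBayes, two-sided, Benjamini-Hochberg over all genes tested, threshold 0.05). The procedure was tested on simulated data. Correlations were tested by exact permutation of 40320 pairings, two-sided, adjusted over 45 pairs. The members and lists were chosen with earlier results of these data known. Named were all members, the ligands, the 2 genes with the smallest p of each other pathway list, the 3 genes most alike to each of the 3 most variable members, and the 2 pairs of members at each end of r. The pairs Irs1 with Irs2, Igfbp2 with Igfbp5 and Insr with Igf1r were named besides, as relatives or neighbours. Alternatives covered the filter, the variance prior, scaling, array weights, marker scores as covariates, a replicate block, probe set choice and each mouse left out. The labels call the mice biological replicates and give no batch or scan date, so a batch effect was not tested. Promoter windows are from RefSeq, GRCm38.p6.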

Additional observations from a re-analysis of the deposited data

Results flagged for a closer look

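Within a group of 4 mice, 1 mouse stood far from the other 3 in 6 of 46 sets of values, over 23 genes and both groups, where chance gives about 1 in 20 for independent sets. For 3 members this was Igf2r in impaired mouse 3, at 7.79 against 8.10 to 8.11 in the other impaired mice, Igfbp4 in intact mouse 3, at 9.07 against 8.72 to 8.74 in the other intact mice, and Igfbp6 in intact mouse 4, at 7.67 against 8.18 to 8.24. For other genes of the pathway it was Shc2 in intact mouse 2, at 6.90 against 7.00 to 7.02, Pdk4 in intact mouse 4, at 8.05 against 7.65 to 7.69, and Klf15 in impaired mouse 2, at 7.25 against 7.02 to 7.05. Impaired mouse 3 and intact mouse 3 also had the lowest choroid plexus scores, -0.93 and -0.96, and intact mouse 3 the lowest thalamus score, -1.32 against -0.19 to 0.46 in the other mice. The part of these scores in the values of Igf2r and Igfbp4 was not tested beyond the covariate fits. The 46 sets come from the same 8 mice and are not independent, so their count is no test against 1 in 20.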

How the results depend on the processing

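No member passed under any of 21 other settings, with a lowest adjusted p of 0.765 (limma), and 199 of 209 member values kept their direction. Of the 13 other pathway genes none passed either (lowest adjusted p = 0.698), and 257 of 268 values kept their direction. The number of genes called was 0 in all settings but the intensity trend with a robust prior, where it was 1 (Scg5, no member, named after its value was seen). No pair of members passed under the 10 settings run for pairs, which were deviations from group means, quantile normalization and each mouse left out. Differences that turned their sign lay between -0.072 and 0.084, and the cause was not tested. With choroid plexus and thalamus scores as covariates, Igf2r was 0.052, Igfbp5 -0.0062, Ins2 0.010 and Igf2 0.026. With the plexus score alone, Ins2 was 0.080 and Igf2 0.074, and after quantile normalization Igf2 was 0.0045. Without both mice of the lowest plexus score, a setting added after seeing the data, Insr was 0.031 and Igf2r 0.010. With each mouse left out in turn, Igf2r ran from -0.089 to 0.018, Irs2 from -0.017 to 0.12, Igfbp4 from -0.0078 to 0.16, Igfbp5 from -0.0039 to 0.13, Igfbp6 from -0.072 to 0.16, Ins2 from -0.14 to 0.084 and Igf2 from -0.17 to 0.021. Over all settings, Insr ran from -0.082 to 0.031, Irs1 from 0.11 to 0.35, Igfbp2 from -0.34 to -0.080, Igfbp3 from -0.24 to -0.14 and Igfbp6 up to 0.29. With the replicate number as a block, 0 genes and 0 members passed. Same-numbered mice correlated at -0.10 to 0.033 in their deviations from the group means, and differently numbered mice at -0.13 to 0.12. The labels do not say whether the numbers pair the mice, and these correlations cannot decide it. Low signal over background limits the values of Igfbp3, Ins2, Pappa, Igfbp1 and Socs1. Irs1, with a mean of 7.36 and 90.8% of the negative controls below it, also lay under their 95th percentile of 7.92. So did both group means of Shc2 and of Klf15.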
